A study of Mus musculus with 2 samples.

Results

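The cells described here are macrophages of the mouse small intestine that carried transcripts of an interferon response. They were chosen by 4 genes: Rsad2, which encodes the antiviral enzyme viperin, and Ifit1, Ifit2 and Ifit3, which encode proteins that bind viral RNA or take part in antiviral complexes. A cell was a member when these genes together gave at least 3 unique molecular identifiers (UMIs, the counted transcript molecules) and at least 0.1% of all its UMIs. Of 5628 cells that passed quality limits (200 or more genes detected, mitochondrial UMIs no more than 10%), 214 met this rule. These counts chose the members, so the levels of the 4 genes are given as description.

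The data came from 2 droplet single-cell libraries of sorted small intestinal macrophages, 1 for each genotype. The wild-type (WT) animals were male C57BL/6J mice from the breeder Janvier. The Ccr2 knockout animals (CCR2-/-, JAX strain 004999) were bred in-house and lack the chemokine receptor with which monocytes leave the bone marrow, so that animal source and genotype cannot be told apart. In both groups 3 to 4 intestines were freed of mucus and epithelium, digested and pooled. Live CD45+ cells that were negative for CD3, TCRb, B220, SiglecF, Ly6C and Ly6G and positive for CD11b, MHCII and CD64 were then sorted. The ages of the animals, and the sex of the knockout animals, are not given in the sources used here. Because each genotype had 1 library, no test between genotypes was possible, and all intervals are 95% intervals that cover counting error only. The WT cells had been split over 2 lanes, whose difference shows technical spread and which are no replicates.

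Type I interferons signal through the receptor subunits IFNAR1 and IFNAR2 and the kinases JAK1 and TYK2 to a complex of transcription factors that includes STAT2 and IRF9 and binds the interferon-stimulated response element near its target genes. The targets include antiviral effectors, the sensors that detect viral nucleic acids, transcription factors such as IRF7 that amplify the response, and inhibitors such as USP18 that end it. Interferon gamma uses another receptor, with targets such as Cxcl9, the class II transactivator Ciita and guanylate-binding proteins. In the intestine, macrophages take up microbial material and can both make interferon and respond to it.

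The region just upstream of the transcription start is shown for the 4 genes of the rule and for 2 response genes that the rule did not use, since the core of the response element (GAAA, any 2 bases, GAAA) can be read in several of them. The windows of Irf7 and Oasl1, searched in the same way, held no match and are not printed. The sequences are the 250 bases before the start (RefSeq, GRCm38.p6), 5′ to 3′ on the strand of the gene, with matches to this core on either strand in capitals.
Rsad2, chr12:26456453-26456702, minus strand: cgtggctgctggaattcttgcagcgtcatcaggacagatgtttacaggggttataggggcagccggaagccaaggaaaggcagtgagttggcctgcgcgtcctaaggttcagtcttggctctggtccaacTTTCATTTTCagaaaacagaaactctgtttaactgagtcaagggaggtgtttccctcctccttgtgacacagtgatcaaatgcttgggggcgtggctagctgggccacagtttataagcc
Ifit1, chr19:34640639-34640888, plus strand: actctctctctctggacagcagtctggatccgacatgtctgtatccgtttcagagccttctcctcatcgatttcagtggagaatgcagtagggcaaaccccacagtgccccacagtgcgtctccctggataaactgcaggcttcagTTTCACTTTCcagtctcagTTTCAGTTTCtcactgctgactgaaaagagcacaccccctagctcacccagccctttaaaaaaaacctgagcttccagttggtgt
Ifit2, chr19:34550444-34550693, plus strand: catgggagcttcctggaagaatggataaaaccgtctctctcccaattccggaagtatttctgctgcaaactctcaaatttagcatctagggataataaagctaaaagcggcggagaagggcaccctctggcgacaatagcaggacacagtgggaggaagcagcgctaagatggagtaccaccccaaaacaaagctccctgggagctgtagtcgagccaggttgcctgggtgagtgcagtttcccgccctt
Ifit3, chr19:34583279-34583528, plus strand: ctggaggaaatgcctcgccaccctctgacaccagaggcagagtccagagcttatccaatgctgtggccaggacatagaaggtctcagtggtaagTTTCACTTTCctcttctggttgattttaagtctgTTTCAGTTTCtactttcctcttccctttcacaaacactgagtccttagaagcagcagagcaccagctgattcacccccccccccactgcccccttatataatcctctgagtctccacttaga
Isg15, chr4:156200819-156201068, minus strand: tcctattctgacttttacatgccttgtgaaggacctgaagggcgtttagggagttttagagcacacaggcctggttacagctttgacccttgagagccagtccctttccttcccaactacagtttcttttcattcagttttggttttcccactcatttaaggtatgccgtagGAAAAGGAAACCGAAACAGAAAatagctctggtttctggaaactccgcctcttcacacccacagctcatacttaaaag
Cxcl10, chr5:92348890-92349139, minus strand: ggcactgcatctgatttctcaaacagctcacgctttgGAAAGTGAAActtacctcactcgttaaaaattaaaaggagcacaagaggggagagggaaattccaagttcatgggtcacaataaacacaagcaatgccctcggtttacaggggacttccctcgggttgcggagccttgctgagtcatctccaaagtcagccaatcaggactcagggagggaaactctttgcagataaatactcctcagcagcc
The Rsad2 window held 1 match, 110 bases before the start, and the Ifit1 and Ifit3 windows held 2 each. Ifit2 had 2 annotated starts, the first of which is shown, and neither window held these letters. In Isg15, 3 overlapping matches ended 68, 62 and 56 bases before the start. In Cxcl10 the match ended 203 bases before it. Of 27025 genes with such a window 3.46% had the pattern. Among the listed interferon-inducible GTPases 10 of 10 genes found in the table had it, among antiviral effectors 17 of 44, among nucleic acid sensors 3 of 9, and among interferon receptors and kinases 0 of 8. Of the 25 genes that stood highest in member cells of both libraries 15 were found in the table and 4 had it, and of the 10 lowest 6 were found and 2 had it. A second pattern, TTCNNNGAA, the core of the gamma-activated sequence, which reads the same on both strands and can share bases with the first, was found in 8.13% of all genes and in 6 of the 10 GTPase genes, but in 5 of 44 antiviral effectors, 0 of 9 sensors, 2 of 17 MHC class I genes and 1 of the 15 highest genes found. A match describes the letters in this window and nothing else.

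The WT library held 96 members among 3016 cells, a share of 3.18% (2.59% to 3.87%, exact Clopper-Pearson interval), and the Ccr2 knockout library held 118 among 2612 cells, a share of 4.52% (3.75% to 5.39%). The lanes of the WT library held 3.32% and 2.87%. The libraries differed in depth, with a median of 6129 UMIs per kept cell in WT and 2439 in the knockout, so each cell was also thinned to a fixed number of UMIs and the expected share with at least 3 rule-gene UMIs was computed. At 1000 UMIs it was 1.40% in WT and 2.07% in the knockout, with 1 and 196 shallower cells left out. At 2000 UMIs it was 2.93% and 4.89%, with 148 and 1017 cells left out. When the same rule was applied to Ifit1, Ifit2 and Ifit3 only, WT held 2.16% (1.67% to 2.74%) and the knockout 1.84% (1.36% to 2.43%), with overlapping intervals. Cells with any Ifit UMI were 28.6% in WT and 18.1% in the knockout. The Ifit rule was not thinned, so the parts of depth and of Rsad2 in this change of order were not tested.

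**Figure D1:**
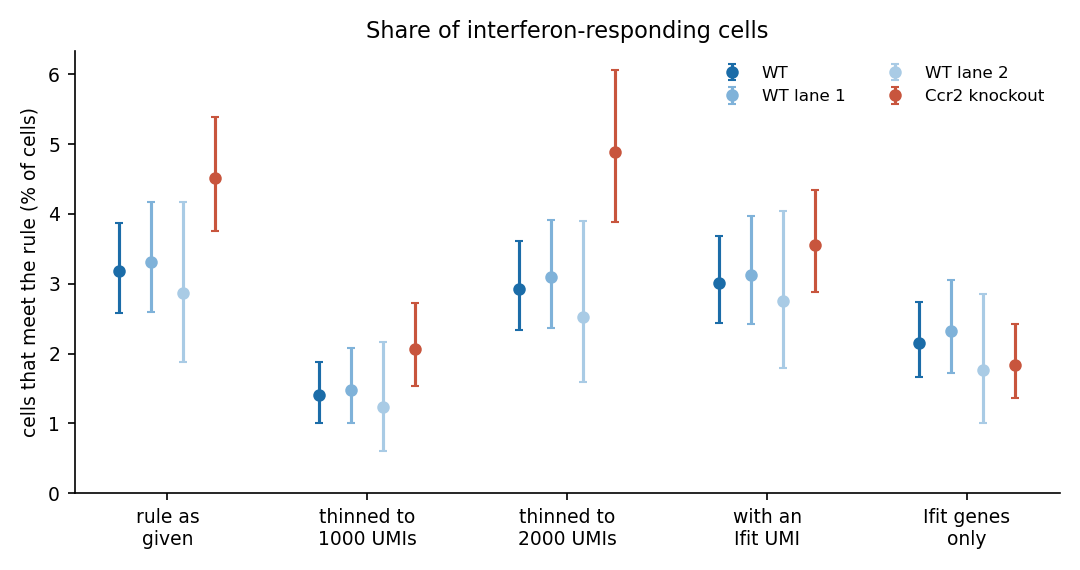
Share of cells that met the rule (y axis, % of cells) for the WT library, its 2 lanes and the Ccr2 knockout library, under 5 settings on the x axis, with 95% Clopper-Pearson bars for counting error. The knockout point lies above WT with the rule as given (4.52% against 3.18%). It lies below WT when only the Ifit genes are used (1.84% against 2.16%), where the bars overlap.

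Members carried between 3 and 74 UMIs of the 4 genes in WT, with a median of 13, and between 3 and 51 in the knockout, with a median of 5.5. The median share of a member's UMIs was close in both, at 0.212% and 0.20%. The member just inside the threshold had 0.102% in WT and 0.103% in the knockout, and the cell just outside it had 0.0995% and 0.0983%. Another 145 WT cells and 58 knockout cells had 3 or more of these UMIs but fell below 0.1%, and they were deep cells, with medians of 8782 and 4891 UMIs. Members held 50.3% of all rule-gene UMIs of the WT library and 55.6% of those of the knockout, so the remainder was spread thinly over the other cells. At least 1 such UMI was found in 33.2% of WT cells and 26.9% of knockout cells. Among the few cells with lymphoid markers and little C1q, the nearest background these libraries offer, it was found in 2 of 5 and 2 of 13, at medians of 3426 and 2212 UMIs, and none of these cells was a member.

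The 4 genes were not balanced in the same way in the 2 libraries. Over all kept cells, Rsad2 (chr12:26442746-26456452, minus strand, GRCm38) stood at 47.9 CPM (counts scaled to a total of 1000000 UMIs; Poisson interval 45.0 to 51.0) in WT, at 52.0 in lane 1 and 38.2 in lane 2, and at 137 (129 to 146) in the knockout, 2.87-fold higher. The 3 Ifit genes, which lie together on chromosome 19, summed to 108 CPM (103 to 112) in WT and 125 (117 to 133) in the knockout, 1.16-fold higher. For Rsad2 the knockout level lies above both lanes by more than the lanes differ, while for the Ifit sum the difference is close to that between lane 1, at 113 CPM, and lane 2, at 96.1 CPM.

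Rsad2 therefore made up 30.8% of the rule-gene UMIs of all WT cells (29.2% to 32.4%) and 52.3% of those of knockout cells (50.1% to 54.6%). The same order held in cells outside the rule, at 24.6% and 42.0%. Within members it was 36.9% in WT, with 37.8% and 34.0% in the lanes, and 60.6% in the knockout. Among members of similar depth, with 2000 to 4000 UMIs, it was 45.3% of 161 UMIs in WT and 63.7% of 498 UMIs in the knockout. Of the WT members 55 of 96 carried all 4 genes and 5 carried 1 gene, whereas 22 of 118 knockout members carried all 4 and 29 carried 1, although detection of several genes also depends on depth.

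Members were compared, within each library and lane, with cells that had 0 UMIs of the 4 genes and the nearest total UMIs, 3 for each member. This gave 288 matched cells in WT and 354 in the knockout. Median depth was 5435.5 UMIs in WT members and 5431.5 in their matched cells, and 2886 and 2886.5 in the knockout. Mitochondrial UMIs had medians of 3.59% and 3.34% in WT and 4.14% and 4.05% in the knockout. Most members were macrophages by their transcripts. A UMI of C1qa, C1qb or C1qc, which encode the first complement component made by tissue macrophages, was found in 95 of 96 WT members and 116 of 118 knockout members. A single such UMI separates cell types poorly, since 2 of 5 and 7 of 13 lymphoid-marker cells had one. At least 3 C1q UMIs and under 3 UMIs of other cell types were found in 89 of 96 WT members and 104 of 118 knockout members. In matched cells these limits were met by 261 of 288 and 321 of 354. Csf1r, the receptor for macrophage colony-stimulating factor, stood at 902 CPM in WT members and 907 in matched cells, and at 1602 and 1613 in the knockout. Over the macrophage list the median log2 ratio of members over matched cells was -0.01 in WT and -0.02 in the knockout. In the knockout library Ccr2 itself had 50 UMIs in all kept cells (6.88 CPM), against 6844 (331 CPM) in WT, and which part of the transcript the allele removes is not given in the sources used here.

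Genes with a mean of at least 50 CPM over members and matched cells counted as measured, and a log2 ratio (with 10 CPM added to both levels) of 1 or more, that is 2-fold, as higher. By this measure 95 of 2553 genes (3.72%) were higher in WT members and 4 (0.157%) lower, and in the knockout 67 of 2737 (2.45%) were higher and 15 (0.548%) lower. Of 2253 genes measured in both libraries 53 were higher in both and 1, Jchain, was lower in both. In the WT library all 25 genes that stood highest in both libraries also passed 2-fold in each lane. The same lanes make up the WT ratio used in the ranking, so this is description. Of these 25 genes 20 belong to the interferon lists described next, and 5 do not: Ifi47, Pydc4, Gm4955, Serpina3g and Nt5c3.

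**Figure D2:**
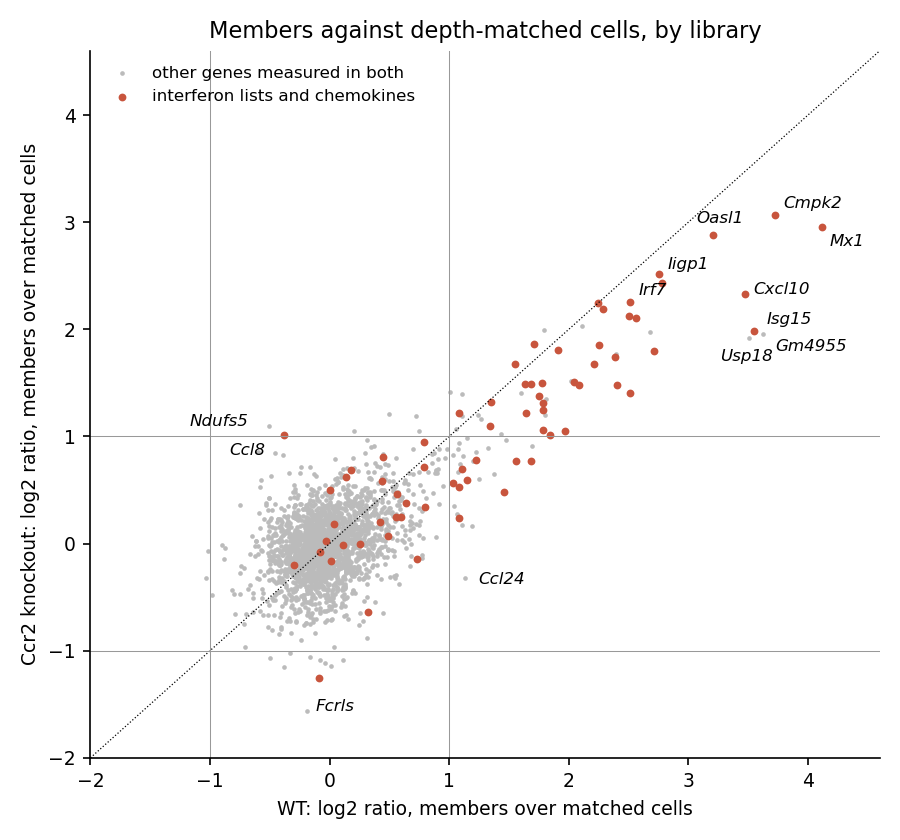
Log2 ratio of members over depth-matched cells in the WT library (x axis) and in the Ccr2 knockout library (y axis) for 2253 genes measured in both. Red points are transcription factors, sensors, antiviral effectors, GTPases and chemokines of the lists, grey lines mark 2-fold, the dotted line marks equal ratios, and Jchain lies outside the axes. Of the 53 genes past 2-fold in both libraries 44 lie below the dotted line, and over all 2253 genes the median difference (knockout minus WT) is -0.01.

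The interferon genes themselves had few UMIs. Of 20 interferon genes searched, 4 had a UMI in WT, with 12 UMIs in 3016 cells: 7 of Ifnb1 in 5 cells, 3 of Ifna2, 1 of Ifna1 and 1 of Ifng, the gene of interferon gamma. A single UMI, of Ifnb1, fell in a member. In the knockout library 2 UMIs of Ifna2 were the whole count. For the knockout members a count of 0 allows a level of up to 7.94 CPM (3 counts of their total) over the listed genes together.

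Receptors and kinases, the first step of the pathway, did not stand higher in members. Of 9 listed genes 6 were measured in each library and 0 passed 2-fold in either direction, with a median log2 ratio of -0.18 in WT and -0.46 in the knockout, where the medians over all genes measured were -0.04 and 0.00. Ifnar1, a subunit of the type I receptor, stood at 79.2 CPM (58.6 to 105) in WT members and 90.1 (77.0 to 105) in matched cells, with overlapping intervals, and at 66.2 (42.8 to 97.7) and 102 (84.0 to 122) in the knockout. Ifngr1, a subunit of the interferon gamma receptor, stood at 97.0 (74.1 to 125) and 133 (117 to 150) in WT, and at 116 (84.6 to 156) and 193 (168 to 220) in the knockout. Its interval in members lies below that in matched cells in the knockout and overlaps it in WT.

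Among the transcription factors 3 of 9 measured genes were higher in each library, Irf7 and Stat2 among them in both. Irf7, the factor that amplifies interferon production (chr7:141262706-141266481, minus strand), stood at 299 CPM (258 to 346) in WT members and 44.2 (35.2 to 54.9) in matched cells, and at 241 (194 to 296) and 42.5 (31.3 to 56.3) in the knockout. At least 1 Irf7 UMI was found in 56.2% of WT members against 15.6% of matched cells, and in 42 of 118 against 39 of 354 in the knockout. Stat2 had log2 ratios of 1.63 and 1.49. Irf9, the partner of STAT2, had a log2 ratio of 0.18 in WT, with 0.43 and -1.01 in the lanes, and 0.69 in the knockout. Irf8 and Irf5, which macrophages express without interferon, had ratios between -0.30 and -0.08.

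Nucleic acid sensors stood higher as a group. In WT 9 of 10 measured genes and in the knockout 9 of 11 passed 2-fold, with medians of 1.93 and 1.49. Ifih1, the cytosolic sensor of long double-stranded RNA also called MDA5, stood at 209 CPM (174 to 248) in WT members and 36.1 (28.0 to 45.9) in matched cells, and at 222 (177 to 275) and 38.9 (28.3 to 52.3) in the knockout, with log2 ratios of 2.24 and 2.25. Ddx58, which encodes RIG-I, had ratios of 1.64 and 1.22, and Zbp1, a sensor of Z-form nucleic acid, 1.69 and 1.49. Genes of the Ifi200 cluster on chromosome 1, Ifi205, Mnda, Pyhin1, Ifi204, Mndal and Ifi203, had ratios between 1.78 and 2.78 in WT and between 1.25 and 2.44 in the knockout. Pydc4 and Gm4955, which lie in the same stretch of chromosome 1 and were in no list, had ratios of 2.68 and 3.62 in WT and 1.97 and 1.95 in the knockout. These related genes are similar in sequence, and their UMIs could be divided between copies. Tmem173, which encodes the adaptor STING, had a ratio of -0.22 in WT and 0.15 in the knockout, where it was below the minimum level.

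Of the antiviral effectors 30 of 41 measured genes were higher in WT and 20 of 36 in the knockout, where 1 was lower, with medians of 1.75 and 1.16. Mx1, a GTPase that blocks viral replication and a named marker of these cells that the rule did not use (chr16:97447035-97462907, minus strand), was found in 52 of 96 WT members and 8 of 288 matched cells, at 238 CPM (201 to 279) and 4.32 (1.86 to 8.50). In the knockout it was found in 31 of 118 members and 6 of 354 matched cells, at 109 CPM (77.9 to 147) and 5.31 (1.95 to 11.6). Cmpk2, a nucleotide kinase whose gene lies next to Rsad2 on chromosome 12 (chr12:26469204-26479837), was found in 44 WT members and 1 matched cell, and in 29 knockout members and 5 matched cells. Its log2 ratios were 3.73 and 3.07.

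Isg15, the ubiquitin-like protein that is conjugated to other proteins (chr4:156199424-156200818, minus strand), stood at 1899 CPM (1792 to 2010) in WT members, with 1875 and 1966 in the lanes, and at 1692 (1563 to 1828) in knockout members. The matched cells differed more, at 153 (135 to 171) in WT, with 140 and 189 in the lanes, and 419 (382 to 459) in the knockout. Its log2 ratio was 3.55 in WT and 1.99 in the knockout, and the wider gap in WT goes with the lower level of its matched cells. Oasl1, a regulator of the same response, stood at 157 CPM and 8.09 in WT and at 148 and 11.5 in the knockout. Rtp4, Herc6, Parp14, Oasl2, Slfn5 and Xaf1 had ratios between 1.91 and 2.56 in WT and between 1.74 and 2.19 in the knockout. Eif2ak2, which encodes the kinase PKR that halts translation on double-stranded RNA, had ratios of 1.34 and 1.10. Ifit3b, a near copy of a rule gene whose UMIs could be divided with it, had ratios of 3.20 in WT and 2.46 in the knockout, where it was below the minimum. Ifitm3, which blocks viral entry, had ratios of 1.04 and 0.57, and Ifitm2 of 0.11 and -0.01. The 1 lower gene was Ifi27, at 26.5 CPM (12.7 to 48.7) in knockout members and 77.0 (61.6 to 94.9) in matched cells, against 115 and 123 in WT.

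**Figure D3:**
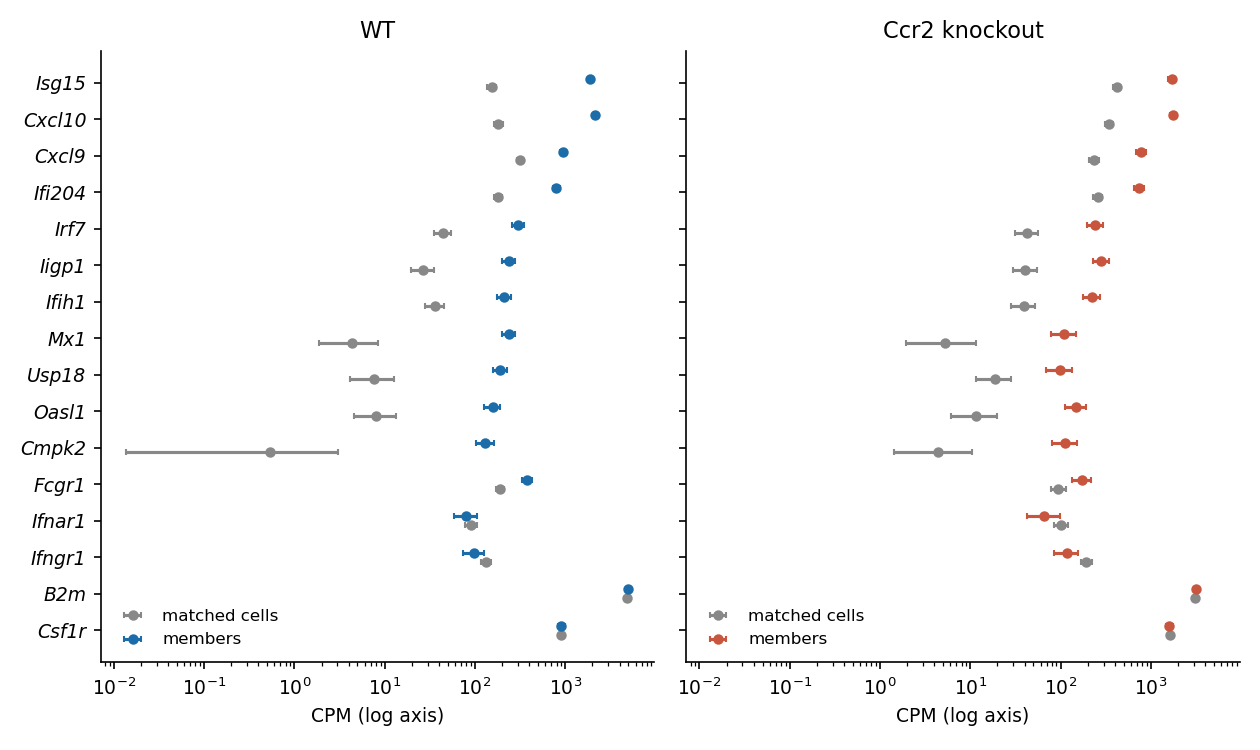
Summed level (x axis, CPM on a log axis) of 16 genes in members and in depth-matched cells of each library, with exact 95% Poisson bars for counting error. From Isg15 to Cmpk2 members lie to the right of matched cells, as for Mx1 at 238 against 4.32 CPM in WT, whereas B2m and Csf1r coincide.

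Of the inhibitors of the pathway Usp18, a protease that removes ISG15 and blocks the type I receptor, was the 1 called gene among 3 measured in WT and 4 in the knockout. It stood at 189 CPM (157 to 227) in WT members and 7.55 (4.13 to 12.7) in matched cells, and at 98.0 (69.0 to 135) and 18.6 (11.5 to 28.4) in the knockout. Its log2 ratios were 3.50 and 1.92. Socs3, a suppressor of cytokine signalling induced by other cytokines too, had ratios of -0.08 and -0.60. The interferon-inducible GTPases, which attack vacuoles of intracellular microbes, were higher for 6 of 9 measured genes in WT and 3 of 8 in the knockout. Iigp1 and Irgm1 were called in both, Gbp2, Gbp4, Gbp7 and Igtp in WT alone, and Gbp5 in the knockout alone, where the minimum level decided in part which genes were measured. Iigp1 had the largest ratios, 2.76 and 2.52, and Gbp2b, at 624 CPM in WT members and 457 in matched cells, had ratios of 0.44 and 0.59.

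Chemokines separated into those that stood higher in members and those that did not. Cxcl10, a ligand of CXCR3 on T cells (chr5:92346638-92348889, minus strand), stood at 2115 CPM (2002 to 2233) in WT members and 182 (163 to 202) in matched cells, with log2 ratios of 3.93 and 2.54 in the lanes, and at 1761 (1629 to 1900) and 342 (309 to 378) in the knockout. It was found in 81.2% of WT members against 28.8% of matched cells and in 62.7% against 30.8% in the knockout. Cxcl9, another CXCR3 ligand, had ratios of 1.55 and 1.68. Of the listed chemokines 6 of 11 measured were higher in WT and 4 of 12 in the knockout. Cxcl2, which attracts neutrophils, was level in both, with ratios of 0.01 and -0.16.

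Ccl5, a chemokine for T cells and monocytes, had a ratio of 1.97 in WT, where 1 cell held 33.5% of the UMIs in members, and 1.05 in the knockout, where 1 cell held 58.6%. In the lanes of WT it was 1.06 and 3.35, and under the rule on the Ifit genes only the knockout ratio turned to -0.45. Ccl4 stood at 1692 CPM in WT members and 610 in matched cells, but at 5808 and 4159 in the knockout, so that members and matched cells of the knockout were both above those of WT. Immediate-early genes such as Fos and Jun, which respond to tissue digestion among other stimuli, stood higher in the knockout too: 10 of 10 were 2-fold or more higher in knockout than in WT members, with a median log2 difference of 1.43, and 10 of 10 in matched cells, with 1.89. Their part in the chemokine levels was not tested. Within a library these genes differed less, with 0 of 10 past 2-fold between members and matched cells.

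Of the listed readouts of interferon gamma, which do not include the guanylate-binding proteins, 1 of 4 measured genes in WT and 1 of 5 in the knockout passed 2-fold, and it was Cxcl9 in both. The list summed to 1258 CPM in WT members and 559 in matched cells, and to 1324 and 798 in the knockout, with Cxcl9 the largest part in members. Socs1, an inhibitor of cytokine signalling below the minimum level, had log2 ratios of 1.83 and 0.99. Ciita had log2 ratios of -0.23 and -0.56, Icam1 of 0.40 and -0.07 and Irf1 of 0.42 and 0.20, and no UMI of Nos2 or Ido1 was found in members. MHC class I genes stood slightly higher, with 0 of 15 measured in WT and 0 of 16 in the knockout past 2-fold and medians of 0.24 in both. Ratios above 0 were found for 11 and 12 of these genes, and for 1106 of 2553 and 1347 of 2737 over all genes measured. The list summed to 10977.5 CPM (10718 to 11242) in WT members and 10532 (10384 to 10680) in matched cells. In the knockout it summed to 8681 (8386 to 8983) and 8113 (7948 to 8281). B2m, the shared light chain, stood at 4895 CPM in WT members and 4872 in matched cells. Tap1, the peptide transporter, had the largest ratio, 0.91 in WT and 0.69 in the knockout. MHC class II genes had medians of -0.11 and -0.05. Of surface molecules Cd40, a costimulatory receptor, had ratios of 1.01 and 1.41, and Cd274, which encodes the checkpoint ligand PD-L1, 1.47 and 0.97. Hspa1a and Hspa1b, heat shock genes that also respond to handling, had ratios of 0.20 and 0.49 in WT and of 1.05 and 1.21 in the knockout. Fcgr1, which encodes the sorting marker CD64 and is itself an interferon target, stood at 378 CPM (331 to 430) in WT members and 189 (170 to 210) in matched cells, and at 172 (133 to 219) and 94.7 (77.6 to 114) in the knockout.

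Few genes were lower in members. Jchain, an antibody chain of plasma cells, had log2 ratios of -5.86 and -4.24, but 98.3% and 95.5% of its UMIs in matched cells came from 5 cells of each library. When both groups were limited to cells with at least 3 C1q UMIs and few UMIs of other cell types, its ratios were -0.21 and 0.00. In the knockout Hbb-bs, Hbb-bt, Hba-a1 and Hba-a2, the haemoglobin genes, were also called lower, between -3.65 and -2.29, and with the same limit all 4 had ratios above 0, between 0.22 and 0.43. The other genes ranked lowest in both libraries had smaller differences. Lgals1, a secreted lectin, had ratios of -0.71 and -0.97, Gas6, a ligand of the engulfment receptor MERTK, of -0.58 and -0.63, and Pf4, a chemokine of resident macrophages, of -0.56 and -0.67. Wwp1, Sec14l1, Nceh1, Trf and Dhrs3 had ratios between -0.79 and -0.52.

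Markers of long-lived resident macrophages stood lower in members as a summed list, while single genes differed. The list summed to 1360 CPM (1270 to 1455) in WT members and 1976 (1912 to 2041) in matched cells. In the knockout it summed to 1774 (1642 to 1913) and 2491 (2400 to 2585), so the gap exceeded counting error in each library. Of the listed genes 4 were measured in WT and 7 in the knockout, 0 passed 2-fold, and the medians were -0.46 and -0.56. Cells with a UMI of Cd163 were 4 of 96 WT members (4.17%, 1.15% to 10.3%) and 39 of 288 matched cells (13.5%, 9.81% to 18.0%), and 17 of 118 (14.4%, 8.62% to 22.1%) and 79 of 354 (22.3%, 18.1% to 27.0%) in the knockout. Their intervals overlap in each library. Timd4, which encodes the phosphatidylserine receptor TIM-4, was found in 16.7% of WT members and 14.9% of matched cells, and in 40.7% and 32.8% in the knockout. Cx3cr1, the fractalkine receptor, stood at 445 CPM (394 to 501) in WT members and 659 (623 to 697) in matched cells, and at 765 (679 to 859) and 1055 (996 to 1117) in the knockout, lower in members of both libraries by more than counting error. Cells with at least 2 UMIs of the monocyte genes Ccr2 and Plac8 were 35.4% of WT members and 37.5% of matched cells, and 3.39% and 4.52% in the knockout. Ccr2 is the gene knocked out, so there this measure rests mainly on Plac8 and its shares cannot be compared between libraries. The summed monocyte list stood at 838 CPM (767 to 913) in WT members and 796 (756 to 837) in matched cells, but the lanes went opposite ways. In lane 1 it stood at 961 (874 to 1056) in members and 666 (624 to 711) in matched cells. In lane 2 it stood at 485 (384 to 606) and 1165 (1071 to 1266). The list was higher in members of the knockout, at 445 (380 to 517) against 285 (255 to 318). Knockout matched cells within the limits on C1q and other cell types stood at 149, but members were not held to these limits. Plac8 had log2 ratios of 0.98 in WT, with 1.42 and -0.59 in the lanes, and 0.88 in the knockout, and 1 cell held 37.6% and 30.8% of its UMIs in members.

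Markers of other cell types were then counted in members. No UMI of S100a8, S100a9 or Retnlg of neutrophils, Cd3e of T cells, or Cd79a or Ms4a1 of B cells was found in members of either library. The B cell list summed to 25.9 CPM in WT members and 18.5 in knockout members, with 4 of 5 genes at 0 in each. In matched cells it summed to 70.7 and 59.3 CPM. The T cell list summed to 3.23 CPM in WT members, with 5 of 6 genes at 0, and to 42.4 in knockout members, with 1 of 6 at 0, against 5.40 and 20.4 in matched cells. The part of such cells in the Ccl5 ratios was not tested. The neutrophil list summed to 385 CPM in WT members and 404 in matched cells, and to 612 and 555 in the knockout, with 4 of 6 and 3 of 6 genes at 0 in members. The plasmacytoid dendritic cell list summed to 650 CPM in WT members and 418 in matched cells, and to 540 and 501 in the knockout. Nearly all of the UMIs of that list came from Tcf4 and from Bst2, an interferon target, while Siglech, the defining marker, had 1 and 3 UMIs in members. The plasma cell list summed to 230 CPM in WT members and 347 in the knockout, against 4221 and 3677 in matched cells, and the erythrocyte list to 16.2 and 548, against 11.3 and 4080. With matched cells held to the limits on C1q and other cell types, the plasma cell list stood at 227 and 361 CPM and the erythrocyte list at 10.4 and 452. The epithelial list summed to 210 CPM in WT members and 378 in matched cells, and to 101 and 81.4 in the knockout. The endothelial list summed to 64.7 and 55.0 in WT, and to 244 and 180 in the knockout. Pecam1, which macrophages also express, gave 67 of the 92 UMIs in knockout members. Knockout matched cells within those limits stood at 105, but members were not held to the limits. The limits also count Pecam1 among the genes of other cell types, so they lower this list in matched cells by themselves. The part of these cell types in the results was not tested.

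The response genes outside the rule followed the rule genes in a graded way. In WT the summed level of the antiviral effector list was 5851 CPM in cells without a rule-gene UMI, 7190 in cells with such UMIs outside the rule, 11066 in members below the median rule-gene share and 18504 in members above it. In the knockout the levels were 5298, 6262, 9650 and 12804 CPM. Sensors went from 854 to 4611 CPM in WT and from 1001 to 3415 in the knockout over the same steps. MHC class I stayed between 10199 and 11874 CPM in WT, and receptors and kinases stood at 851 in cells without a rule-gene UMI and 626 in members above the median. Cells outside the rule were deeper than the others, with a median of 7691 UMIs in WT and 3143 in the knockout.

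**Figure D4:**
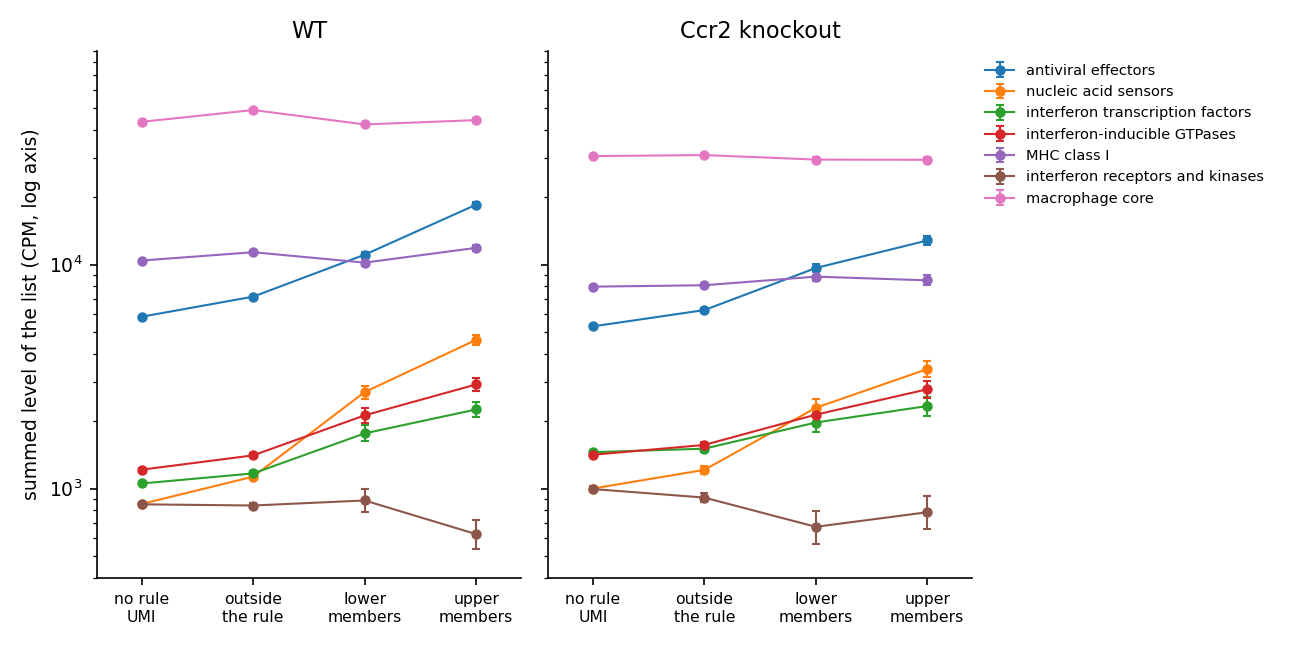
Summed level of 7 gene lists (y axis, CPM on a log axis) in 4 bins of cells: no rule-gene UMI, rule-gene UMIs but outside the rule, and members below and above the median rule-gene share, with exact 95% Poisson bars. Antiviral effectors and sensors climb over the bins of both libraries, for effectors from 5851 to 18504 CPM in WT, while the macrophage list stays level.

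Cell by cell, the members were not alike. The antiviral effectors other than the rule genes made up a median of 1.24% of a WT member's UMIs and 0.985% of a knockout member's, against 0.540% and 0.504% in matched cells. The 95th percentile of matched cells, 1.01% in WT and 0.960% in the knockout, was passed by 63 of 96 WT members (65.6%) and 60 of 118 knockout members (50.8%). Members with UMIs of both Rsad2 and an Ifit gene passed it in 57 of 83 cells in WT and 55 of 82 in the knockout, 68.7% and 67.1%. Members with Rsad2 UMIs and none of the Ifit genes were 5 in WT and 25 in the knockout, and passed it in 0 of 5 and 2 of 25 cells. Members with Ifit UMIs and none of Rsad2 passed it in 6 of 8 cells in WT and 3 of 11 in the knockout. The passing share also differed with the number of rule-gene UMIs. With at most 5 of them, 6 of 16 WT members and 19 of 59 knockout members passed the percentile. With 6 or more, 57 of 80 and 41 of 59 did. The part of this number in the differences between groups and libraries was not tested. The 25 knockout cells with Rsad2 alone had a median depth of 2739 UMIs, near the 3069 of the 82 cells with both. Their Mx1 level was 13.3 CPM (0.336 to 73.9), from 1 UMI, against 129 (90.1 to 178) in cells with both, while Isg15 stood at 954 CPM (747 to 1202) against 1958 (1798 to 2129) and 419 in matched cells.

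**Figure D5:**
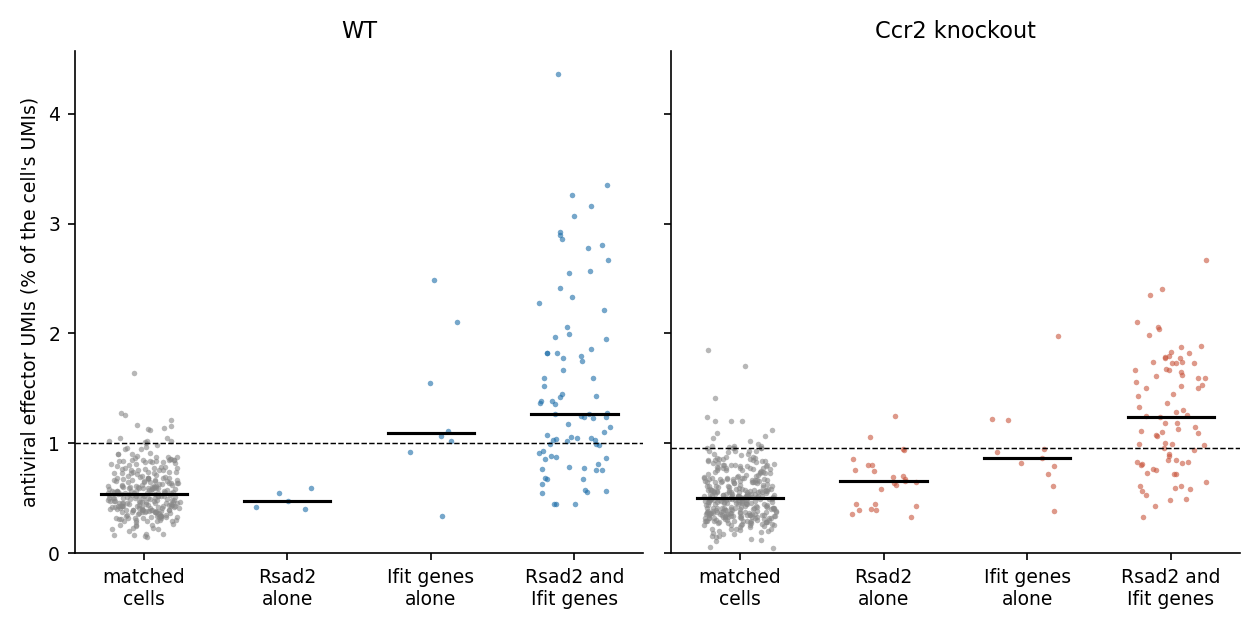
Antiviral effector UMIs as a percent of each cell's UMIs (y axis, rule genes not included) in matched cells and in members split by the rule genes they carried, by library. Each point is a cell, bars are medians, and the dashed line is the 95th percentile of matched cells (1.01% and 0.960%), passed by 2 of 25 knockout members with Rsad2 alone and by 55 of 82 with Rsad2 and Ifit genes.

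Set side by side across genotype, members of both libraries carried Isg15, Oasl1 and Ifih1 at similar levels, with log2 differences (knockout over WT) of -0.17, -0.08 and 0.09, while some other response genes were lower in the knockout. Of 2638 genes measured in members 187 (7.09%) were 2-fold or more higher in knockout members and 129 (4.89%) lower, and the median log2 difference was 0.09. Of 44 antiviral effectors 1 was higher and 7 were lower, with a median of -0.26, against 0.12 in matched cells. Among members with 2000 to 4000 UMIs in both libraries, over the effectors measured there, that median was 0.04. This window changes both the members and the genes measured, and the part of depth in the difference was not tested. The lower ones were Ifi27, Ms4a4c, Ifitm3, Ifi44, Mx1, Ifitm2 and Slfn1, between -1.77 and -1.01, and the higher one was Trim25. For Mx1 the difference was -1.06, and the WT lanes differed from each other too, at 267 and 156 CPM. Ifit3 and Rsad2 chose the members, so their levels in members are description. Ifit3 stood at 760 CPM in WT members, with 741 and 815 in the lanes, and at 344 in the knockout, 0.453 of the WT level. Over all kept cells the knockout level of Ifit3 was 0.952 of the WT level, and in cells outside the rule 1.11. Rsad2 stood at 965 CPM in WT members and 1702 in knockout members, and was 2.62-fold higher in the knockout in cells outside the rule.

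Among genes measured in both libraries the ratio of members over matched cells was larger in WT for 44 of the 53 that were 2-fold higher in both. Over all 2253 such genes the median difference of the log2 ratio (knockout minus WT) was -0.01. Matched cells had median depths of 5431.5 UMIs in WT and 2886.5 in the knockout, so 0 rule-gene UMIs is a weaker limit in the knockout. The part of this in the ratios was not tested. The largest differences of the log2 ratio in this direction were those of Gm4955, Usp18, Isg15, Ccl24 and Fcrls, and in the other direction those of Jchain, Ndufs5, Ly6a, Ccl8 and Hcfc1r1. Ccl24, an eosinophil attractant, and Ccl8, a monocyte attractant, rest on a few cells: a single cell held between 18.9% and 33.0% of their UMIs in members. In Ly6a 5 WT matched cells held 84.0% of the UMIs, and with the limits on C1q and other cell types its ratios were 1.02 in WT and 0.16 in the knockout, which turned the direction of the difference. Of knockout members 25 of 118 carried Rsad2 without an Ifit UMI and, of these, 2 passed the 95th percentile of matched cells in antiviral effectors. With those members left out, 93 of 2612 knockout cells remained, 3.56%, beside 91 of 3016 in WT, 3.02%.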

How the data were processed

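Droplet 3′ libraries (10x Genomics, v2 chemistry per the labels' protocols) from sorted small intestinal macrophages of WT and Ccr2 knockout mice were analysed from the deposited matrices of raw UMI counts, which the authors left without normalisation. Cell Ranger 3.0.1 and the mm10 build are named in the submitters' processing notes, and the annotation release is not given in the sources used here. Coordinates are those of GENCODE M21 (GRCm38). The deposited WT matrix held 3054 cells and 20766579 UMIs, and the knockout matrix 2774 cells and 7506405 UMIs. The WT lanes shared 5 barcode sequences, and WT and knockout shared 6, none of them in members.

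Cells with 200 genes or more and mitochondrial UMIs up to 10% entered the analysis, with no doublets removed from the values of the report. Members and matched cells were summed within a library and scaled to CPM, with exact Poisson intervals for levels and Clopper-Pearson intervals for shares, at the 95% level. Thinned shares are exact expectations from the hypergeometric distribution, with the interval of the rounded count. PCR and cells of 1 library are no replicates, so no test was made. The procedure was tested on simulated data with known changes. Named genes were the 25 highest and 10 lowest by the weaker of both libraries' ratios, the 5 largest differences each way, and list members. The members and gene lists were chosen with earlier results of these data known, and counts of list genes are descriptions. Python 3.11.15, numpy 2.4.6, scipy 1.17.1, pandas 2.3.3 and scanpy 1.11.5 were used. Values of some listed genes are not reported here.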

Additional observations from a re-analysis of the deposited data

Results flagged for a closer look

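The log2 ratio of members over matched cells had opposite signs in the knockout and in both lanes of WT for 4 named genes, and this difference was not tested because each genotype had 1 library. Ccl24 differed by -1.45 (knockout minus WT), with ratios of -0.32 and 1.14. Ccl8 differed by 1.40, with 1.02 and -0.38. Ndufs5, a subunit of respiratory complex I, differed by 1.61, with 1.10 and -0.51, and Hcfc1r1 by 1.30, with 0.84 and -0.45. Ccl8 in WT turned to 0.11 with the macrophage limits (at least 3 C1q UMIs and under 3 UMIs of other cell types), and in the knockout its ratio was 0.44 when members needed an Ifit UMI. For Ccl24, unmatched cells without a rule-gene UMI as the comparison gave 0.053 in the knockout and 0.59 in WT, so that the signs were no longer opposite.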

How the results depend on the processing

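Each genotype had 1 library, so no alternative tests replication, and depth limits what can be read of genes below 50 CPM. No paired analysis was possible because the groups hold 1 library each. Of 319 summary values recomputed under alternatives 251 stayed near the value of the report, 68 moved and 0 reversed. Only list medians and graded levels that were 2-fold or more in the report could count as reversed, so the 0 says little. A turned order of the library shares, or a changed sign of the effector median between genotypes, was not counted as reversed. The 25 highest genes stayed past 2-fold in 750 of 750 values, the lowest being 1.08 (Nt5c3 in the knockout with 50 CPM added). These genes were chosen for their ratios in the same cells, and the settings that change only the minimum level cannot change a ratio. The alternatives that use the Ifit genes alone, or require an Ifit UMI, were chosen after seeing the data. The cause of the shifts was not tested.

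The share of members was 5.24% in WT and 6.39% in the knockout at a rule-gene share of 0.05%, 1.72% and 2.26% at 0.2%, and 1.40% and 2.07% after thinning to 1000 UMIs. In the knockout it was 5.47% with a minimum of 2 rule-gene UMIs, 2.87% with 5, and 3.56% with an Ifit UMI required. With the Ifit genes only it was 2.16% in WT and 1.84% in the knockout, which turned the order of the libraries, with overlapping intervals.

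Genes higher in WT members numbered 63 with 50 CPM added, 161 with no minimum level and 19 with a minimum of 200 CPM. In the knockout these counts were 40, 164 and 11, and 133 with the Ifit genes only. Genes lower in WT members numbered 9 with 1 CPM added, 1 with 50 CPM added, 60 with no minimum, 1 with a minimum of 200 CPM, 9 with 1 matched cell per member, 2 with unmatched cells, 2 with median-of-ratios factors, 11 by the mean of per-cell shares, 51 in lane 2 alone and 14 with the Ifit genes only. Genes lower in knockout members numbered 23, 5, 202 and 5 under the first 4 of these settings, 24 with 1 matched cell per member, 31 with a minimum of 5 rule-gene UMIs, 31 with an Ifit UMI required and 62 with the Ifit genes only.

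List medians in WT were 0.98 for transcription factors, 0.71 for antiviral effectors and 0.56 for GTPases at a minimum of 200 CPM. With 50 CPM added they were 1.58 for sensors, 1.26 for antiviral effectors and 0.82 for GTPases. Sensors had 1.69 with no minimum, and GTPases 1.43 with the Ifit genes only.

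Between knockout and WT members the number of higher genes was 99 with 50 CPM added, 303 in members of 2000 to 4000 UMIs and 333 against lane 2, and that of lower genes 53 and 283 under the first 2 of these. The Rsad2 part of rule-gene UMIs was 34.0% in lane 2, 45.3% in WT and 63.7% in the knockout at 2000 to 4000 UMIs, 54.5% in the knockout with an Ifit UMI required, and 32.2% and 49.6% with the Ifit genes only.

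The log2 level of the antiviral list over cells without a rule-gene UMI was 0.30 outside the rule, 0.92 below and 1.66 above the median of members in WT. It was 0.35 and 1.04 for the first 2 in lane 1, 0.19, 0.54 and 1.83 in lane 2, and 0.33, 1.20 and 1.79 with bins on the Ifit genes. In the knockout it was 0.41, 1.08 and 1.51 with those bins, and 0.20 outside the rule and 1.19 above the median with the macrophage limits.

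Among gene ratios that were 2-fold or more in the report, 5 reversed, all in the knockout, and sign changes of smaller ratios were not counted. Ccl5 had -0.45 with the Ifit genes only. With 1 matched cell, with the macrophage limits and with the Ifit genes only, Hba-a1 had 0.29, 0.43 and 0.43, Hba-a2 0.47, 0.42 and 0.73, and Hbb-bs 0.060, 0.22 and 0.10. Hbb-bt had 0.38 and 0.95 under the last 2 of these.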
